A study of Sorghum bicolor with 9 samples.

Results

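Calcium ions act as a messenger in plant cells. Stores such as the endoplasmic reticulum and the space outside the plasma membrane hold calcium, pumps and exchangers move it out of the cytosol, and short pulses of it are read by proteins with EF-hands, the helix-loop-helix motif that binds the ion. Some of these readers, the calmodulin-like proteins, pass the signal on by binding to other proteins. Others are kinases, either with EF-hands of their own (calcium-dependent kinases) or activated by calcineurin B-like (CBL) calcium sensors (CBL-interacting kinases). In flowering plants a calcium gradient at the tip of the pollen tube is known to guide its growth.

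The transcripts of 6 genes of this system are described here across sorghum anther development. They are the calreticulin gene Sobic.002G090500.v3.1, Sobic.003G082600.v3.1 (the ortholog of rice OsCML16, a calmodulin-like protein), the EF-hand gene Sobic.002G199500.v3.1, the calcium ATPase gene Sobic.001G247300.v3.1, the calcium-dependent kinase gene Sobic.001G045000.v3.1 and the CBL-interacting kinase gene Sobic.001G523200.v3.1. The version suffix is left out from here on. They were picked by these gene IDs from a table of 40082 loci, of which 33115 carried a gene ID and 30776 of those were above 0 in at least 1 stage. Each of the 6 IDs was found at a single locus that carried no other ID, and each was above 0 in every stage. The names of their products rest on matches to rice and Arabidopsis proteins.

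RNA came from whole anthers of field-grown Sorghum bicolor plants, with no treatment named in the labels, of the variety M35-1, a single genotype, at 3 stages. Stage A1 covered meiosis to tetrads, A2 held microspores and A3 held mature pollen. Each stage had 3 libraries, 9 in all, but the authors deposited 1 FPKM value (fragments per kilobase of transcript, scaled to library size) per locus and stage with the libraries combined. The differences given below were computed from these combined values, with no spread between replicates, read depth or test of their own. The study's own test, run on its libraries, is not used here. A locus counts as higher or lower where its fold reaches 2 after 0.5 FPKM is added to each value.

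The stage labels were set beside genes taken here as markers. They come from the study's list of fertility candidates, which it drew from genes differing between stages on these samples. The study did not name them as stage markers. The 5 meiosis markers, DMC1 among them, were all highest at A1 and summed to 134 FPKM at A1, 93.8 at A2 and 40.7 at A3. Other meiosis genes of the study's candidate list were not included, and not all of them share this course. By the study's grouping, XRCC3 peaked at A2. Some RPA1c and MEL2 genes peaked at A3, and others at A1 and A2. Of the 6 tapetum and exine markers, 5 were highest at A2 and 1, TIP2, at A1 (173 FPKM against 154 at A2). These 6 summed to 1896 FPKM at A1, 5138 at A2 and 138 at A3. They did not fall alike. At A3, TDR still had 101 FPKM, against 337 at A2, and TIP2 had 28.7, while none of the others was above 5.06 FPKM. Transcripts of the tapetum, the inner layer of the anther wall, were thus abundant although the labels name the tissue as male gametophyte. Other tapetum and exine genes of the candidate list were not included, and they do not all share 1 course. By the study's grouping, WDA1 peaked at A3, OsNP1 at A2, and others, such as DTC1, at A1 and A2. The 5 pollen markers summed to 0.767 FPKM at A1, 0.581 at A2 and 279 at A3, and 3 of them were listed at 0 at A2. In such whole-anther RNA, fewer cells of a type and less RNA per cell cannot be told apart, and the part of these shifts in the courses of the 6 genes was not tested. All A3 libraries carried 1 project code, which 1 of the 3 libraries of A1 and 1 of the 3 of A2 shared. With the libraries combined, project and stage cannot be told apart for a single gene.

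The 6 genes differed widely in level and course. Calreticulin was the most abundant at every stage and was at its highest at A1, as were 29.8% of all loci. The other 5 genes were highest at A3, where 46.2% of all loci had their highest value. Of these 5, 3 dipped at the microspore stage (OsCML16, the EF-hand gene and the ATPase gene) and the 2 kinase genes did not. FPKM is set per length of transcript, so levels of different genes can be placed side by side. In A1 the levels ran from 0.665 FPKM for the ATPase to 2624 FPKM for calreticulin, at A2 from 0.249 to 1950 FPKM and at A3 from 3.03 to 490 FPKM. The ratio of the highest to the lowest level was 3949 at A1, 7838 at A2 and 162 at A3. Only calreticulin and the ATPase gene set this ratio. The genes between them ran from 4.36 to 14.7 FPKM at A1, from 2.62 to 22.3 at A2 and from 9.62 to 93.0 at A3. In fold, those genes lay closest together at A1.

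**Figure D1:**
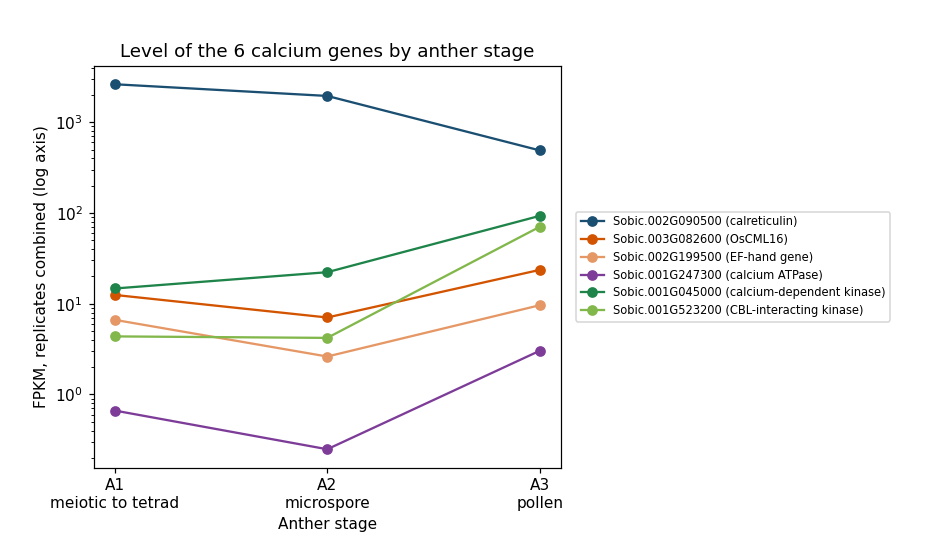
FPKM (log axis, replicates combined by the authors) of the 6 calcium genes in stages A1, A2 and A3, 1 point per gene and stage with no error because the libraries were combined. Calreticulin went from 2624 to 490 FPKM between A1 and A3, the other 5 genes had their highest value at A3, and OsCML16, the EF-hand gene and the ATPase gene had their lowest value at A2, as had, by a fold of 1.03, the CBL-interacting kinase.

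Calreticulin, a chaperone of the endoplasmic reticulum that also buffers calcium there, is encoded at Sobic.002G090500 on chromosome 2 from 9437447 to 9445985 (genome version v3.0.1, as are all positions here). Its level was 2624 FPKM at A1, 1950 at A2 and 490 at A3. It stood at rank 7 among the 30776 loci at A1, rank 16 at A2 and rank 116 at A3. Its level was thus among the highest of the whole table early on and still above 99.6% of loci with mature pollen. The gene took 0.411% of all FPKM of the table at A1, 0.290% at A2 and 0.060% at A3. It was 1.35-fold lower at A2 than at A1, 3.98-fold lower at A3 than at A2 and 5.36-fold lower at A3 than at A1. Of all loci, 12.6% were lower by 2-fold or more in that comparison, and 3.51% of loci had a more negative log2 difference than calreticulin.

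Within the 6 genes, calreticulin made up 98.5% of the summed FPKM at A1, 98.2% at A2 and 71.0% at A3. Without it, the remaining 5 summed to 38.9 FPKM at A1, 36.4 at A2 and 200 at A3. Its level was 178 times that of the calcium-dependent kinase at A1 and 5.27 times at A3. The gene Sobic.002G090400 overlaps the calreticulin locus and was listed at 13.8, 15.0 and 7.94 FPKM at A1, A2 and A3. Whether the counting used the strand of the reads is not given in the sources used here, so a small exchange of reads between the overlapping genes cannot be told from the values. A further calreticulin gene, Sobic.001G025500 on chromosome 1, was at 450, 424 and 58.3 FPKM. It had the same order of stages at a lower level, and Sobic.002G090500 was 5.83 times as abundant at A1, 4.60 times at A2 and 8.40 times at A3. How the authors treated reads that fit several gene copies is likewise not given in the sources used here.

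The calmodulin-like gene Sobic.003G082600 lies on chromosome 3 from 7081813 to 7084517. Calmodulin-like proteins bind calcium through EF-hands and have no enzyme activity of their own, and the rice ortholog OsCML16 is known for drought tolerance. It had 12.5 FPKM at A1, 7.05 at A2 and 23.6 at A3. The lowest value was that of the microspore stage and the highest that of mature pollen. It was 1.72-fold lower at A2 than at A1, which does not reach 2-fold, 3.19-fold higher at A3 than at A2, and 1.85-fold higher at A3 than at A1, again below 2-fold.

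The EF-hand gene Sobic.002G199500 lies on chromosome 2 from 58905215 to 58906639. Its product is named only by its calcium-binding motif, and its partners are not stated. Its levels were 6.64 FPKM at A1, 2.62 at A2 and 9.62 at A3, which is a lower level than OsCML16 at each stage. The ratio of OsCML16 to this gene was 1.88 at A1, 2.69 at A2 and 2.45 at A3. It was 2.29-fold lower at A2 than at A1 and was the only 1 of the 6 genes to be at least 2-fold lower in this comparison, against 0.741% of all loci. The ATPase gene joined it when the pseudocount was 0.1 or left out. With mature pollen it was 3.25-fold higher than with microspores and 1.42-fold higher than with meiocytes.

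The calcium ATPase gene Sobic.001G247300 lies on chromosome 1 from 26238940 to 26241978. Its rice match is a pump of the plasma membrane type, and such pumps move calcium out of the cytosol at the cost of ATP. It was the least abundant of the 6 at every stage, with 0.665 FPKM at A1, 0.249 at A2 and 3.03 at A3. In A2 its level was above that of 35.2% of loci and at A3 above that of 53.7%. It was 1.56-fold lower at A2 than at A1, 4.71-fold higher at A3 than at A2 and 3.03-fold higher at A3 than at A1. At this low level the added 0.5 FPKM sets much of the fold. Without it, the gene was 2.67-fold lower at A2 than at A1 and 12.2-fold higher at A3 than at A2, and the fold of A3 over A1 was 4.56.

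OsCML16, the EF-hand gene and the ATPase gene shared the dip at A2. All 3 lay at least 1.5-fold below both neighbouring stages at A2, a shape found for 286 of the 30776 loci, or 0.929%. With 1 FPKM added in place of 0.5, the ATPase gene was only 1.33-fold lower at A2 than at A1 and left this set, and with no pseudocount the set held 1763 loci and all 3 genes. The study had itself sorted these 3 genes by this course on the same samples, so their shared shape is not independent evidence of a dip in calcium genes. Measured as the fold between A2 and the nearer of the other stages, the dip was 2.29-fold for the EF-hand gene, 1.72-fold for OsCML16 and 1.56-fold for the ATPase. A deeper dip was found at 42, 149 and 233 loci in that order. The order of the 3 depends on the added 0.5 FPKM, since without it the dip was 2.67-fold for the ATPase, 2.54-fold for the EF-hand gene and 1.77-fold for OsCML16. The CBL-interacting kinase gene was also lowest at A2, but by a fold of 1.03 only. A lowest value at A2 was found for 25.0% of all loci. By gene, A2 held 13.9% of the FPKM summed over stages for the EF-hand gene, 16.3% for OsCML16 and 6.31% for the ATPase, while A3 held 51.0%, 54.7% and 76.8%.

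**Figure D2:**
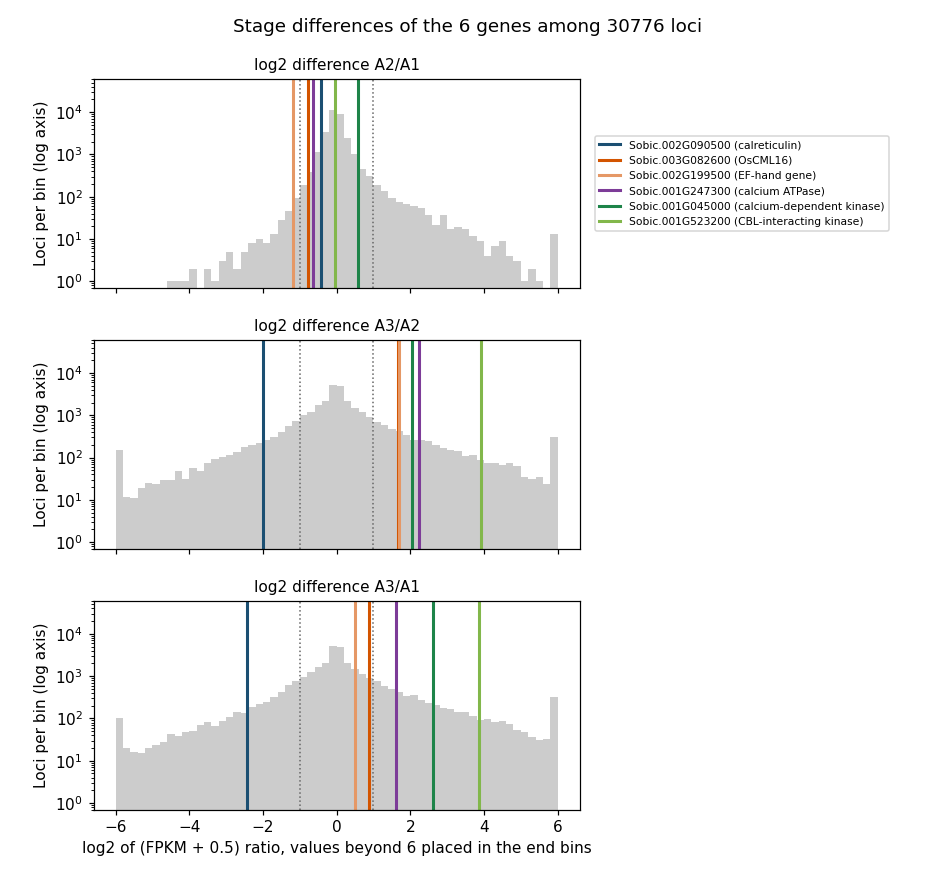
Histograms of the log2 difference of (FPKM + 0.5) over 30776 loci for A2/A1, A3/A2 and A3/A1 (log count axis, dotted lines at 2-fold), with the value of each of the 6 genes as a coloured line. Between A1 and A2 only the EF-hand gene lies past 2-fold, between A2 and A3 all 6 do, and calreticulin is alone on the lower side.

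The calcium-dependent kinase gene Sobic.001G045000 lies on chromosome 1 from 3342043 to 3346914. Kinases of this family carry a kinase domain and calcium-binding EF-hands in 1 protein, so that calcium switches them on directly. The gene had 14.7 FPKM at A1, 22.3 at A2 and 93.0 at A3. It was the only 1 of the 6 with a value in each stage above that of the stage before. The log2 difference between A1 and A2 was 0.58, below the 2-fold limit, and the value at A3 was 4.11-fold higher than at A2 and 6.14-fold higher than at A1. Its rank among all loci went from 7128 at A1 to 5111 at A2 and 1236 at A3.

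The CBL-interacting kinase gene Sobic.001G523200 lies on chromosome 1 from 78804464 to 78814869. Its kinase family has no EF-hands and is switched on when a CBL protein that has bound calcium attaches to it. The gene had 4.36 FPKM at A1, 4.20 at A2 and 70.5 at A3. The first 2 stages were nearly level, with a log2 difference of -0.05, and A3 was 15.1-fold higher than A2 and 14.6-fold higher than A1. This was the largest fold among the 6 genes in either comparison with A3, and 826 of the 30776 loci had a larger log2 of A3 over A2. A3 held 89.2% of the FPKM of this gene summed over stages.

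The 2 kinase genes were 3.37-fold apart at A1, 5.30-fold at A2 and 1.32-fold at A3, the calcium-dependent kinase being higher each time. Their summed level was 19.1 FPKM at A1, 26.5 at A2 and 163 at A3. Calreticulin exceeded that sum 138 times at A1, 73.7 times at A2 and 3.00 times at A3. In the order of the 6 genes, the CBL-interacting kinase moved from the fifth place at A1 to the fourth at A2 and the third at A3. In A1 the closest neighbours in that order were the calcium-dependent kinase and OsCML16, 1.18-fold apart, and with no spread per stage it cannot be said which neighbours differ.

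Some loci beside the 6 genes were looked at after their values were seen. The locus of the CBL-interacting kinase overlaps Sobic.001G523150, which reached only 0.184 FPKM at A3. The next locus, 1429 bases further on, is Sobic.001G523300, matching a heavy metal-associated protein. It stood at 1.10 FPKM at A1, 1.32 at A2 and 47.3 at A3, so that adjacent loci shared a high value at A3. The gene on its other side, Sobic.001G523100, stayed under 0.05 FPKM at all stages. The left neighbour of the calcium-dependent kinase gene, Sobic.001G044900, 1045 bases away, had 1.34, 1.40 and 4.42 FPKM, while the right one, Sobic.001G045100, was at 0.0349, 0.0377 and 0.0352 FPKM.

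Counted over the comparisons, 1 of the 6 genes was lower and 0 were higher by the 2-fold limit at A2 than at A1, where 0.741% of all loci were lower and 2.91% higher (3.65% together). In A3 against A2, 5 were higher and 1 lower, where 16.5% of loci were higher and 12.6% lower (29.0% together). In A3 against A1, 3 were higher and 1 lower, where 17.4% of loci were higher and 12.6% lower (30.0% together). The median log2 difference of the 6 genes was -0.53 for A2/A1, 1.87 for A3/A2 and 1.25 for A3/A1, beside -0.00068, 0.0065 and 0.0095 over all loci. Of the 6 genes, 5 were listed by the study as differing between stages in the part of its annotation used here and the sixth is named in its text, so these counts are not independent evidence that calcium genes move with stage.

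Other calcium genes were taken from the annotation of the study, 26 differentially expressed genes of chromosomes 1 and 2 and the pollen calmodulin-binding gene OsPCBP. Being chosen by the study on these samples, they had to differ, and only their directions and levels are described. In A3 against A1, 16 of the 27 were higher and 11 lower by the 2-fold limit, with a median log2 difference of 1.41. Over all loci, 5341 were higher and 3877 lower in that comparison, so an excess of higher genes is not particular to the list. Between A1 and A2, 2 of 27 were higher and 0 lower, beside 896 and 228 of all loci. The classes below hold few genes each, and their counts are descriptions only.

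All 4 CBL-interacting kinase genes of that list were higher at A3 than at A1, as was Sobic.001G523200. Sobic.001G390200 was the most abundant, with 25.3 FPKM at A1, 41.9 at A2 and 107 at A3, above the 70.5 FPKM of Sobic.001G523200. Sobic.001G379600 had 1.69, 7.45 and 50.0 FPKM and was among the 2 list genes that were 2-fold higher at A2 already. Sobic.002G203000 (1.31, 1.35 and 15.5 FPKM) and Sobic.002G203100 (2.20, 2.54 and 13.3 FPKM) were level at A1 and A2. The 4 summed to 30.5 FPKM at A1, 53.3 at A2 and 186 at A3.

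The calcium-dependent kinases of the list did not share 1 direction. Sobic.001G063300 was higher at A3 like Sobic.001G045000, with 0.659 FPKM at A1, 0.701 at A2 and 13.7 at A3. Sobic.002G343500 (49.4, 40.9 and 14.4 FPKM) and the related kinase Sobic.001G196800 (23.2, 19.7 and 7.53 FPKM) were lower at A3. Sobic.002G343500 was thus above Sobic.001G045000 at A1 and A2 and below it at A3.

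Among EF-hand genes of the list, 3 of 4 were higher at A3 than at A1. Sobic.001G339801 had 1.65 FPKM at A1, 2.96 at A2 and 72.9 at A3, a higher A3 level than OsCML16 and Sobic.002G199500 together. The calmodulin-like gene Sobic.001G076300 had the opposite course to the dip described above, with a peak at A2 (11.7, 61.6 and 0.194 FPKM). Neither of the remaining EF-hand genes, Sobic.001G393500 and Sobic.001G048900, exceeded 10 FPKM at any stage.

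The transport genes of the list all had the opposite direction to the plasma membrane type ATPase gene Sobic.001G247300. The pump gene Sobic.001G103300, whose match is of the endoplasmic reticulum type, had 41.2 FPKM at A1, 37.8 at A2 and 11.8 at A3. The exchanger Sobic.001G346500 had 13.2, 9.90 and 2.71 FPKM, the exchanger Sobic.001G240300 had 7.16, 10.3 and 0.754 FPKM, and the cyclic nucleotide-gated channel Sobic.001G083800 had 15.6, 18.7 and 4.31 FPKM. All 4 were below either earlier stage at A3 by more than 2-fold.

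Genes classed here as calmodulin-binding were divided, with 3 of 6 higher and 3 of 6 lower at A3 than at A1. OsPCBP (Sobic.004G100900) was at 0.00982 FPKM at A1, listed at 0 at A2 and at 24.0 FPKM at A3, and is also among the pollen markers above. Both transcription activators that bind calmodulin, Sobic.001G351700 (15.7, 14.9 and 47.4 FPKM) and Sobic.001G474600 (15.6, 27.6 and 40.5 FPKM), were higher at A3, and Sobic.001G222400 (78.3, 63.5 and 19.2 FPKM) was lower. The matches of Sobic.001G222400 are named for a lack of pollen germination and for a tetratricopeptide repeat. Neither name mentions calmodulin, so its place in this class is not given by the annotation. All 5 genes listed as C2-domain proteins, whose Arabidopsis matches are named for calcium and lipid binding, were higher at A3 than at A1. In sum they went from 37.3 FPKM at A1 to 46.2 at A2 and 162 at A3. The rice matches of Sobic.002G303300 and Sobic.002G310900 carry other names, an anthranilate phosphoribosyltransferase and a GTPase activating protein.

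**Figure D3:**
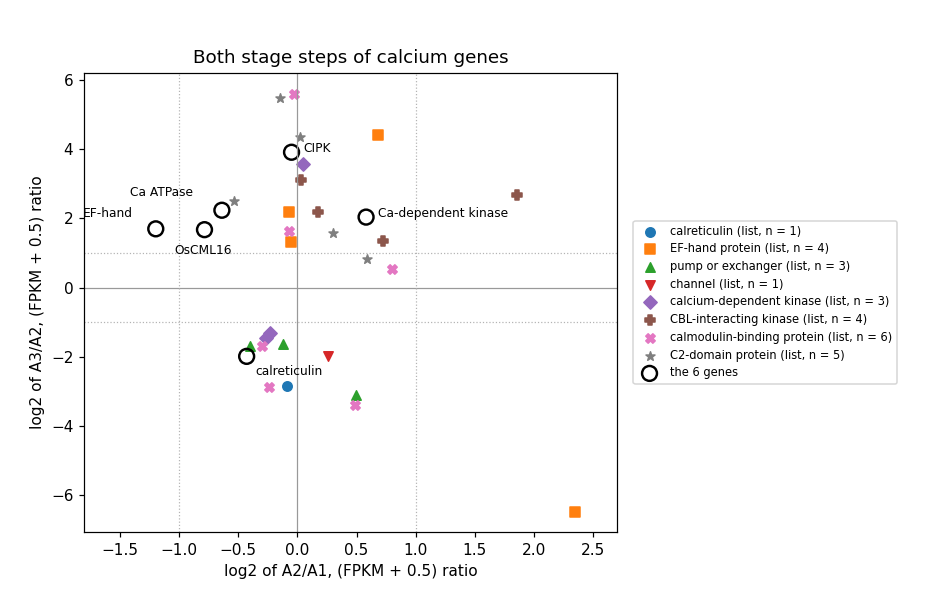
The log2 difference of A2/A1 (horizontal) against that of A3/A2 (vertical), both of FPKM + 0.5, for the 27 list genes by class (filled symbols) and the 6 genes (open circles), with dotted lines at 2-fold. OsCML16, the EF-hand gene and the ATPase gene lie at the upper left, calreticulin lies at the lower left, and the CBL-interacting kinases of the list all lie above 1 on the vertical axis.

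**Figure D4:**
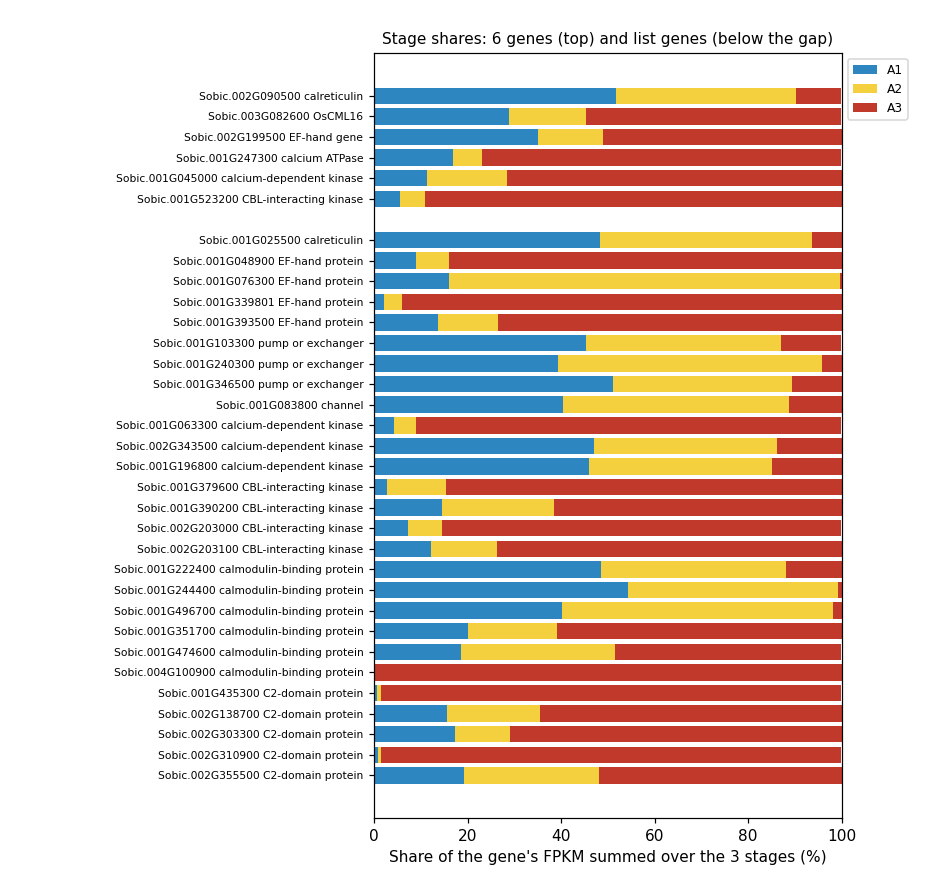
Share of each gene's FPKM summed over the 3 stages (%), 1 bar per gene, for the 6 genes (top) and the 27 list genes (below the gap). The A3 share ran from 9.67% for calreticulin to 89.2% for the CBL-interacting kinase among the 6, and A2 was the smallest of the 3 shares for OsCML16, the EF-hand gene, the ATPase and, by a narrow margin, the CBL-interacting kinase.

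The nearest annotated genes in level and course were sought for each of the 6 by Euclidean distance over the 3 log2 values. The candidates were 1297 genes with 1 gene ID, a named match and at least 1 FPKM in some stage. They came from the part of the study's list used here, which held 1594 annotated genes. All genes named below lie on chromosomes 1 and 2, and genes outside that part were not searched. Each gene has only 3 points for this measure, and all genes share the same combined libraries. The calcium-dependent kinase gene had the closest neighbour, the trehalose metabolism gene Sobic.002G194700, at a distance of 0.17 (16.0, 20.5 and 90.2 FPKM), followed by Sobic.002G330500, an isopentenyl diphosphate isomerase gene, at 0.29. Among the candidates, the nearest to the CBL-interacting kinase were the alpha/beta-hydrolase gene Sobic.001G532300 at 0.48 and the tetraspanin gene Sobic.002G207300 at 0.52.

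For the genes with a dip, the nearest to OsCML16 were the copper transporter gene Sobic.001G353200 at 0.44 (11.0, 7.25 and 17.8 FPKM) and the glycosyl hydrolase gene Sobic.001G061900 at 0.50. The nearest to the EF-hand gene were Sobic.001G482100, of unknown function, at 0.22 and the beta-glucosidase gene Sobic.002G261600 at 0.38 (6.48, 3.22 and 11.8 FPKM). The ATPase gene had Sobic.002G183900 and the oxidoreductase gene Sobic.001G254600 both within 0.28. Calreticulin had no near neighbour, the closest being Sobic.001G371900, a copper/zinc superoxide dismutase gene, at 2.24 and the histone gene Sobic.002G210200 at 3.69. Over all loci with 1 gene ID, 0 lay within 0.5 of calreticulin, against 7 for the EF-hand gene and 39 for the ATPase. For the CBL-interacting kinase, the calcium-dependent kinase and OsCML16 the number was 11, 13 and 26.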

How the data were processed

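Total RNA of 9 anther libraries (3 per stage) was prepared with a stranded kit. Per the study's methods and the submitters' processing notes, the authors trimmed reads, removed rRNA reads with Bowtie2 2.2.9, aligned the rest with STAR, estimated expression with StringTie 1.3.3b and tested stages with Cuffdiff. Per stage, the authors deposited 1 column of FPKM, normalised for length and library size, with the replicates combined. They summed to 638053 at A1, 672303 at A2 and 815871 at A3. The study reports read totals for its 9 libraries, which were not used here. Read counts per locus and library are unknown here.

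Log2 differences and folds were computed after adding 0.5 FPKM (python 3.11.15, numpy 2.4.6, pandas 2.3.3; figures with matplotlib 3.10.9), over loci that had a gene ID and were above 0 at some stage, and called at 2-fold. The arithmetic was tested on simulated data. With 1 value per stage, no test, no leaving out of replicates and no block could be run. A planned list by gene description and planned sequence features were not run, since the reference table used here held neither. Starts are the deposited ones with 1 added, which met 744 starts of the RefSeq table (assembly NCBIv3) against 170 without.

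The 6 genes and the lists were chosen with earlier results of these data known. Named genes are the 6, the genes of the calcium list, and the 2 nearest annotated genes to each. Neighbouring loci were named after their values were seen. Gene functions came from the annotation of the study.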

Additional observations from a re-analysis of the deposited data

How the results depend on the processing

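No paired analysis was possible because the deposited columns combine the replicates, and leaving out replicates could not be run for the same reason. The 18 member differences (6 genes, 3 comparisons) were recomputed under 8 alternatives, of which 1 (no pseudocount) was added after seeing the data. Of these 144 values, 139 kept their direction and their side of the 2-fold limit (1.5-fold in 1 alternative), 5 passed the limit only under the alternative, and 0 fell below it or reversed. Not all of these values could change. A filter for a mean FPKM of at least 1, a filter for loci with 1 gene ID and the 1.5-fold limit left the log2 values of the 6 genes as they were. Under these alternatives no value could reverse or fall below the limit. Another pseudocount, or none, could not reverse a value either, since the same amount was added to both stages. With a pseudocount of 0.1 or none, no value could fall below the limit. Only median-of-ratios scaling and quantile normalization could have reversed a value. The ATPase gene Sobic.001G247300 passed for A2/A1 with a pseudocount of 0.1 (log2 -1.13), at a limit of 1.5-fold (-0.64) and with no pseudocount (-1.42). OsCML16 passed at 1.5-fold for A2/A1 (-0.78) and for A3/A1 (0.89). Members lower for A2/A1 thus numbered 2 with a pseudocount of 0.1, 3 at 1.5-fold and 2 with no pseudocount, in place of 1.

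Over all loci for A2/A1, 1419 were higher and 548 lower with a pseudocount of 0.1, 1719 and 865 at 1.5-fold, and 2792 and 1743 with no pseudocount, in place of 896 and 228. At 1.5-fold, 6184 loci were lower for A3/A2, 6217 lower for A3/A1, and 6 list genes higher for A2/A1. With quantile normalization calreticulin was 1.93-fold lower at A2 than at A1, and its log2 of A3/A1 was -2.89. Median-of-ratios factors lay between 0.988 and 1.01. A dip at A2 of at least 1.5-fold, recomputed after seeing the data, was found for 695 loci with a pseudocount of 0.1, 197 with 1 and 1763 with none, in place of 286. It held 2 of the 6 genes in place of 3 with a pseudocount of 1, where the ATPase gene was 1.33-fold below A1. Without read counts, the precision of low values such as those of the ATPase gene is unknown.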
